A study of Mus musculus with 22 samples.

Results

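The transcripts described here come from the mouse mitochondrial genome. They were chosen by symbol alone, as every gene whose name starts with mt-, which gave 37 of the 56748 gene IDs in each deposited table. Of these, 13 code for proteins, 2 for ribosomal RNAs and 22 for transfer RNAs. They were measured by bulk RNA sequencing in 22 primary mouse tumours of the oral buccal mucosa, the cheek lining, which model head and neck squamous cell carcinoma.

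All 4 groups shared the alleles Krt5CreER-T2/+ and Trp53 fl/fl, and both Rosa26 alleles held LSL-PIK3CA(H1047R), an activated PIK3CA that Cre switches on. Tumours were started by injecting 4-hydroxytamoxifen into the cheek, so recombination was limited to cells that express Krt5, a basal keratinocyte gene. The Keap1-deleted BAP group (5 tumours) also carried Keap1 fl/fl and received benzo[a]pyrene (BAP), a tobacco carcinogen, into the same site. The Keap1-wildtype BAP group (6 tumours) received BAP without the floxed Keap1 alleles. The Keap1-deleted untreated group (5 tumours) carried Keap1 fl/fl and had no BAP, and the Keap1-wildtype untreated group (6 tumours) had neither. KEAP1 is the adaptor that directs the transcription factor NRF2 to degradation. Age, sex and the number of tumours per animal were not given in the sources used here, so the p-values measure the spread between these samples.

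Mitochondria keep a small circular genome that is transcribed from both strands as long precursor RNAs. Most tRNA genes lie between the protein and rRNA genes, and cutting the tRNAs out of the precursor, by mitochondrial RNase P at one end and ELAC2 at the other, releases the neighbouring mRNAs and rRNAs. The protein genes encode core subunits of respiratory complexes I, III and IV and of the ATP synthase, while the rRNAs and tRNAs serve the mitochondrial ribosome that translates them.

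Library totals ranged from 29235010 to 39862777 counts. Keap1 itself had 33.7, 74.6, 11.5, 41.05 and 16.6 CPM (counts scaled to a library total of 1e+06) in Keap1-deleted BAP libraries 1 to 5, against 43.5 to 62.7 CPM in Keap1-wildtype BAP libraries. It had 22.3 to 43.2 CPM in Keap1-deleted untreated libraries and 41.0 to 83.8 CPM in Keap1-wildtype untreated libraries. The library labelled Keap1-deleted BAP 2 therefore lay above all Keap1-wildtype BAP libraries, and whole-gene counts do not separate the floxed exons. The first principal component of all genes held 45.9% of the variance. On it Keap1-wildtype untreated 6 lay at 162, with the Keap1-deleted BAP libraries (125 to 189) and apart from the other Keap1-wildtype untreated libraries (-142 to -15.1). Keap1-deleted untreated 3 and 4 lay near that high end as well (129 and 116), while others of their group were at -28.6 to 42.05. The Keap1-wildtype BAP libraries lay at -132 to -92.1. Summed CPM of 12 basal keratinocyte markers was 409 to 2043 in Keap1-deleted BAP libraries, 26700 to 49710 in Keap1-wildtype BAP libraries, 2911 to 27740 in Keap1-deleted untreated libraries and 1638 to 40440 in Keap1-wildtype untreated libraries, and none of the 12 was at 0 in any library. In bulk tumours, fewer cells of a type and less RNA per cell cannot be told apart.

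mt-Tc, mt-Tn and mt-Tl2, the tRNAs that passed a test in at least 1 comparison, and mt-Tp, the tRNA with the most counts, are shown here in RNA sense, as DNA letters of GENCODE M21 on GRCm38, with the anticodon in capitals. Each anticodon lies in a loop closed by a stem of 5 base pairs. The build used for the deposited counts is not given in the sources used here.
mt-Tc: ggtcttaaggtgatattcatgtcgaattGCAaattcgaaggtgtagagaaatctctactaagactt
mt-Tn: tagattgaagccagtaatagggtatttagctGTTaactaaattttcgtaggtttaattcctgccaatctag
mt-Tl2: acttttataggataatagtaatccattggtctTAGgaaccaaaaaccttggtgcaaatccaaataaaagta
mt-Tp: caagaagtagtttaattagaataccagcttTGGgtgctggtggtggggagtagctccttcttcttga

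mt-Tc carries cysteine and occupies positions 5192 to 5257 of the mitochondrial chromosome (M), minus strand, over 66 bases. mt-Tn carries asparagine and occupies 5089 to 5159, minus strand, over 71 bases. The 2 genes are neighbours, and the 32 bases between them are the region known as the origin of light-strand replication. mt-Tl2, a leucine tRNA, lies at 11671 to 11741 on the plus strand and shares 1 base with mt-Ts2. mt-Tp, the proline tRNA, lies at 15356 to 15422 on the minus strand. All 22 tRNA genes are 59 to 75 bases long, shorter than a 150 bp read, so a read counted to one can also cover its neighbours in a precursor. Strandedness of the libraries was not given, so reads of a gene and of a transcript on the opposite strand cannot be told apart.

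Protein genes made up nearly all mitochondrial counts. Over the 22 libraries they held 95.3% of the members' counts and 3.07% of all counts, while the rRNAs held 4.41% and the tRNAs 0.259% of the members' counts. The protein-gene share of the library total was 4.00%, 1.09%, 1.11%, 1.265% and 5.06% in Keap1-deleted BAP libraries 1 to 5, against 2.37% to 4.77% with a median of 3.37% in Keap1-wildtype BAP libraries. It was 2.265%, 2.51%, 1.94%, 1.51% and 2.35% in Keap1-deleted untreated libraries, against 1.42% to 10% with a median of 3.31% in Keap1-wildtype untreated libraries. Both comparisons overlapped. Keap1-deleted BAP 1 and 5 were high and the other 3 lay below all Keap1-wildtype BAP libraries. Keap1-wildtype untreated 6 (1.42%) lay below all Keap1-deleted untreated libraries and Keap1-wildtype untreated 1 (1.52%) below 4 of the 5, while the other 4 Keap1-wildtype untreated libraries lay above them all.

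The rRNA share was 0.0544% to 0.219% in Keap1-deleted BAP libraries (median 0.121%) and 0.121% to 0.156% in Keap1-wildtype BAP libraries (median 0.142%). It was 0.0463% to 0.0850% in Keap1-deleted untreated libraries (median 0.0707%) and 0.0400% to 0.649% in Keap1-wildtype untreated libraries (median 0.157%). Summed tRNA CPM was 29.2 to 105 in Keap1-deleted BAP libraries (median 56.9) and 50.2 to 96.8 in Keap1-wildtype BAP libraries (median 68.7). It was 21.6 to 55.0 in Keap1-deleted untreated libraries (median 28.2) and 25.6 to 343 in Keap1-wildtype untreated libraries (median 128). All 3 classes varied most among Keap1-wildtype untreated tumours, where the highest library exceeded the lowest 7.04-fold for protein genes, 16.2-fold for rRNAs and 13.4-fold for tRNAs. In Keap1-deleted untreated tumours the same ratios were 1.66, 1.84 and 2.54.

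**Figure D1:**
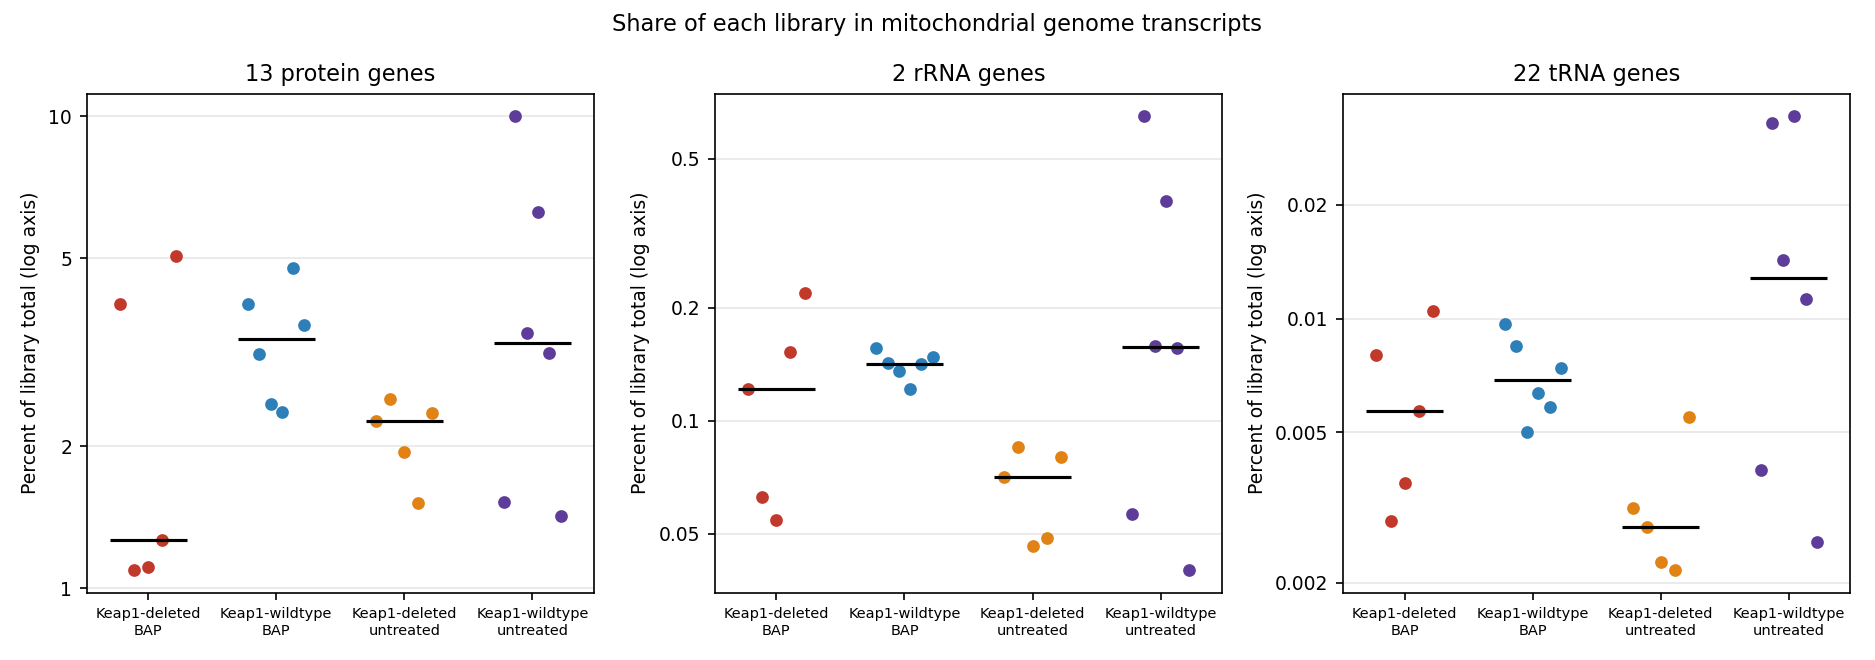
Percent of each library's total counts in the 13 protein genes, the 2 rRNA genes and the 22 tRNA genes, on log axes. Each point is a library, ordered by replicate number within its group, and each bar is the group median; Keap1-wildtype untreated tumours spread from 1.42% to 10% for protein genes, and the Keap1-deleted untreated tumours from 1.51% to 2.51%.

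mt-Co1, the catalytic core subunit of complex IV, took 35.3% to 46.5% of protein-gene counts over all 22 libraries. The highest of these shares was 1.315 times the lowest, against 9.16 times for the protein-gene share of the library total. It had 16380, 4529, 4445, 5681 and 21240 CPM in Keap1-deleted BAP libraries, against 10150 to 18560 CPM (median 14340) in Keap1-wildtype BAP libraries. It had 9345, 10460, 7652, 6230 and 9496 CPM in Keap1-deleted untreated libraries, against 5999 to 39500 CPM (median 13540) in Keap1-wildtype untreated libraries. In both comparisons the groups overlapped.

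mt-Nd1, a complex I subunit, followed the same libraries. It had 6383, 1492, 1666, 1809 and 6771 CPM in Keap1-deleted BAP libraries, against 3695 to 8146 CPM (median 5266) in Keap1-wildtype BAP libraries. It had 3577, 3758, 2736, 2171 and 3844 CPM in Keap1-deleted untreated libraries, against 2260 to 15700 CPM (median 6184) in Keap1-wildtype untreated libraries. mt-Nd6, the complex I subunit that is the 1 protein gene on the minus strand, had 1111, 358, 474, 409 and 1547 CPM in Keap1-deleted BAP libraries, against 619 to 1357 CPM (median 1098) in Keap1-wildtype BAP libraries. It had 731, 652, 553, 548 and 715 CPM in Keap1-deleted untreated libraries, against 482 to 3155 CPM (median 1184) in Keap1-wildtype untreated libraries. Its share of protein-gene counts stayed between 2.60% and 4.28%.

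Per kilobase of gene, mt-Co1 stood highest in 22 of 22 libraries, at a median of 6821 CPM per kilobase. mt-Nd1 (4324) and mt-Cytb, the mitochondrially encoded subunit of complex III (3461), came next, followed by the complex I genes mt-Nd2 (1724), mt-Nd6 (1404), mt-Nd4 (1396) and mt-Nd5 (1022). mt-Nd2 exceeded mt-Nd6 in 15 of 22 libraries and mt-Nd6 exceeded mt-Nd4 in 17, so these neighbours did not keep 1 order. The rRNAs came lower, with mt-Rnr1 of the small ribosomal subunit at 594.5 and mt-Rnr2 of the large subunit at 386.5. mt-Co2 and mt-Co3 of complex IV (255 and 149) and mt-Atp6 of the ATP synthase (236) formed a further group in which mt-Co2 exceeded mt-Atp6 in 12 of 22 libraries. The complex I genes mt-Nd3 (35.4) and mt-Nd4l (11.02) and the ATP synthase gene mt-Atp8 (1.31) were lowest, and mt-Atp8 was last in 21 of 22 libraries.

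**Figure D2:**
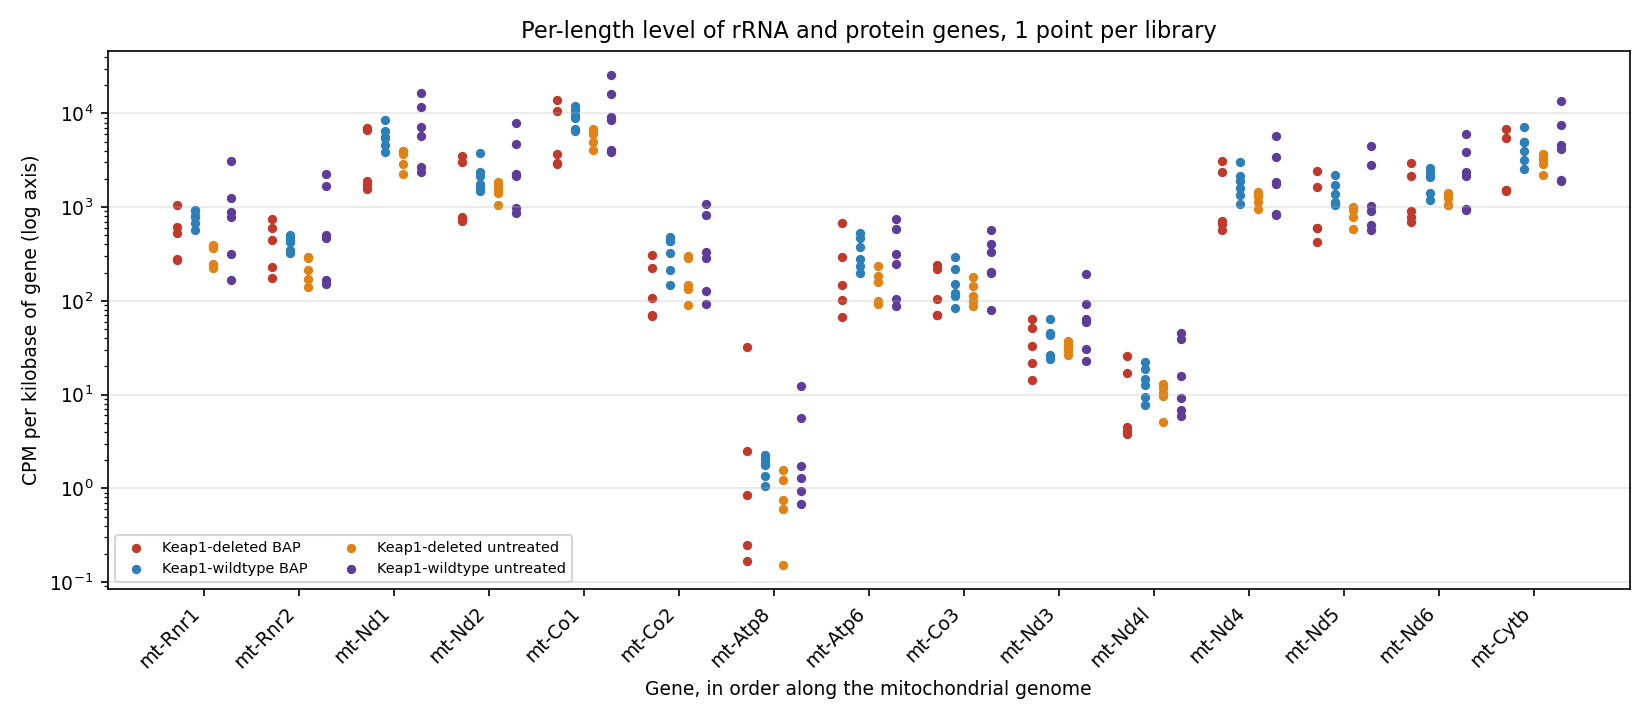
CPM per kilobase of gene (log axis) for the 2 rRNA and 13 protein genes in order along the mitochondrial genome, with 1 point per library and 1 colour per group. The medians over libraries run from 1.31 for mt-Atp8 to 6821 for mt-Co1, and mt-Co2, mt-Atp8, mt-Atp6, mt-Co3, mt-Nd3 and mt-Nd4l form a low stretch in all groups.

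Part of that low stretch has near-identical copies in the nuclear genome. Annotated pseudogenes on chromosome 1 between 24611535 and 24616197 (GRCm38) hold 99.4% of all 150-base windows of mt-Atp6 (Gm10925), 99.8% of those of mt-Co3 (Gm28437), 97.0% of those of mt-Nd3 (Gm28438) and 98.0% of those of mt-Nd4l (Gm10222). For mt-Co2 the share was 99.4% (mainly Gm28661), for mt-Nd4 59.15% (Gm28439) and for mt-Co1 23.6% (Gm29216). Gm10925 had 145546 counts in all libraries together and mt-Atp6 139689. No 150-base window of mt-Nd1, mt-Nd2, mt-Nd5, mt-Nd6, mt-Cytb, mt-Rnr1 or mt-Rnr2 occurred in a nuclear transcript. How the authors' counting divided reads between such copies is not given, so the levels of the shared genes are uncertain. mt-Atp8 overlaps mt-Atp6 over 43 bases, has no such nuclear window, and was listed at 1 to 204 counts per library.

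The tRNAs were dominated by 4 genes. mt-Tp held 34.6% of tRNA counts, mt-Tc 18.96%, mt-Tl2 18.4% and mt-Tn 10.2% over the 22 libraries together, and 3 of these 4 lie on the minus strand. The order was not the same in all libraries: the median share per library was 34.4% for mt-Tp, 20.1% for mt-Tl2 and 18.8% for mt-Tc. In Keap1-deleted untreated libraries the median was 24.8% for mt-Tl2 and 12.55% for mt-Tc. mt-Tc exceeded mt-Tp in Keap1-deleted BAP 1, 3 and 4 and in Keap1-wildtype BAP 2. At the other end, mt-Tf (phenylalanine) and mt-Td (aspartate) had 0 counts in all 22 libraries. Per library, that allows up to 3 counts. A further 9 tRNAs were at 0 in 10 to 21 libraries and were too low to test, which left 11 of 22 tRNAs beside all 13 protein genes and both rRNAs. Small RNAs are lost in many library protocols, and whether one was used that keeps them is not given.

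mt-Tp had 15.4, 11.8, 9.70, 10.98 and 37.1 CPM in Keap1-deleted BAP libraries, against 15.96 to 44.5 CPM (median 19.7) in Keap1-wildtype BAP libraries. It had 9.75, 7.64, 9.145, 7.61 and 23.4 CPM in Keap1-deleted untreated libraries, against 8.61 to 135 CPM (median 39.9) in Keap1-wildtype untreated libraries. Both pairs overlapped. In the untreated pair 2 of 5 Keap1-deleted libraries lay below the lowest Keap1-wildtype library. The estimate there, -2.50 on the log2 scale (SE 0.62), did not pass the edgeR test described below (adjusted p = 0.0739).

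Keap1 deletion without BAP was tested with edgeR's quasi-likelihood test, fitted on 19202 genes with Benjamini-Hochberg adjustment over all of them. All 26 tested mitochondrial genes had a lower estimate in Keap1-deleted untreated tumours, with a median log2 fold change of -1.52 against -0.05 over all genes tested. Only mt-Tc fell at an adjusted p under 0.05, that is 1 of 26 members, while 0.292% of all genes passed in either direction and 0.0781% passed as lower. No member had groups without overlap in CPM, beside 1.8% of all genes tested. At an unadjusted p under 0.05 there were 22 of 26 members (84.6%), beside 3382 of all genes (17.6%). The members come from shared precursor RNAs and were measured in the same libraries, so the 26 are not separate pieces of evidence.

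mt-Tc had 3.91, 3.99, 2.85, 4.10 and 4.49 CPM in Keap1-deleted untreated libraries, against 4.26, 61.5, 24.5, 66.7, 14.8 and 4.81 CPM in Keap1-wildtype untreated libraries 1 to 6. The Keap1-deleted libraries lay within a narrow band, and 4 of 5 were below the lowest Keap1-wildtype library. The log2 fold change was -3.02 (SE 0.61, adjusted p = 0.0405). mt-Tn, its neighbour, had 2.47, 1.20, 1.504, 1.66 and 2.94 CPM in Keap1-deleted untreated libraries, against 1.74, 35.7, 17.1, 37.8, 11.5 and 2.56 CPM in Keap1-wildtype untreated libraries. Its log2 fold change was -3.26 (SE 0.71, adjusted p = 0.0505 in edgeR), which did not pass. mt-Tw, the tryptophan tRNA, named after its values were seen, had the lowest estimate, -4.65 (SE 1.05, edgeR adjusted p = 0.0564). It had 1 to 18 counts in Keap1-deleted untreated libraries (median 4), against 8 to 335 counts in Keap1-wildtype untreated libraries (median 92), and it did not pass except with DESeq2 and some other alternatives.

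By role, the estimates were largest for tRNAs (median log2 fold change -2.49, range -4.65 to -1.45, 1 of 11 lower), intermediate for the rRNAs (-2.03 for mt-Rnr2 and -1.78 for mt-Rnr1, 0 of 2 called) and smallest for protein genes (median -1.22, range -2.12 to -0.94, 0 of 13 called). These classes were not tested against each other. Only 11 of 22 tRNAs had enough counts to test, and some of those were low. Over all libraries mt-Tw had a median of 16.5 counts (highest 335) and mt-Ta a median of 6 (highest 60). Such a gene can pass the count filter through the libraries where it is high, so the order of the classes is a description only. mt-Rnr2 had 336, 469, 225, 271 and 453 CPM in Keap1-deleted untreated libraries, against 239 to 3550 CPM (median 771) in Keap1-wildtype untreated libraries. mt-Rnr1 had 371, 381, 237, 217 and 348 CPM in Keap1-deleted untreated libraries, against 161 to 2941 CPM (median 800) in Keap1-wildtype untreated libraries. Both rRNAs overlapped between the groups.

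The count of called members in the untreated comparison rested on single libraries. It was 13 without Keap1-wildtype untreated 6, 3 without Keap1-wildtype untreated 1, and 0 without Keap1-wildtype untreated 2, 3 or 4 or without any 1 of the 5 Keap1-deleted untreated libraries. Calls over all genes moved too, from 56 in the full fit to 2731 (14.4%) without Keap1-wildtype untreated 6, 60 without Keap1-wildtype untreated 1, and 16 to 54 in the fits that gave 0 members. The estimate for mt-Tc stayed between -3.25 and -2.49 in these fits, with adjusted p from 0.00182 to 0.122. Summed CPM of 16 skeletal muscle markers was 192 to 1986 in Keap1-deleted untreated libraries (median 544) and 19.6 to 732 in Keap1-wildtype untreated libraries (median 152), with 0 of 15 tested markers called; Tnnc2 was at 0 throughout, and in Keap1-wildtype untreated 3 a total of 9 markers were at 0. Summed CPM of 8 B and plasma cell markers did not overlap, at 61.1 to 1327 in Keap1-deleted untreated libraries and 5.68 to 57.9 in Keap1-wildtype untreated libraries, and 1 of 6 tested markers, Igha, rose. Fibroblast markers summed to 3340 to 72300 in Keap1-deleted untreated libraries and 553.7 to 36930 in Keap1-wildtype untreated libraries, and endothelial markers to 242 to 622 in Keap1-deleted untreated libraries and 87.9 to 383.5 in Keap1-wildtype untreated libraries. Adipocyte markers summed to 51.0 to 169.9 in Keap1-deleted untreated libraries and 12.54 to 3812 in Keap1-wildtype untreated libraries; none of these 3 lists had a called marker, and their part in the result was not tested. With the muscle score as a covariate no member and 14 of all genes were called (mt-Tc -2.79, adjusted p = 0.153), and with the keratinocyte score mt-Tc was called (-2.91, adjusted p = 0.0365).

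In Keap1-deleted BAP tumours, against Keap1-wildtype BAP tumours, 2 of 26 tested members fell and none rose by edgeR's adjusted p, while 40.3% of all genes passed in either direction with 20.0% lower and 20.3% higher. The share of members called was thus below the background. The median log2 fold change of the members was -0.80 against -0.00 over all genes, with 23 of 26 estimates negative. At an unadjusted p under 0.05 there were 3 members (11.5%), beside 9367 of all genes (48.8%). No member had groups without overlap in CPM, beside 29.0% of all genes tested.

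The 2 called members were mt-Tl2 and mt-Co2. mt-Tl2 had 15.5, 2.47, 2.99, 1.78 and 12.1 CPM in Keap1-deleted BAP libraries, against 8.77 to 27.7 CPM (median 19.6) in Keap1-wildtype BAP libraries. The libraries labelled Keap1-deleted BAP 2, 3 and 4 lay below all Keap1-wildtype BAP libraries, and libraries 1 and 5 lay within their range. The log2 fold change was -1.74 (SE 0.61, edgeR adjusted p = 0.0291). Without BAP, mt-Tl2 had 8.44, 9.02, 5.65, 3.73 and 12.52 CPM in Keap1-deleted untreated libraries, against 4.65 to 49.7 CPM (median 29.7) in Keap1-wildtype untreated libraries, and the estimate of -1.85 (SE 0.62, adjusted p = 0.144) did not pass.

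mt-Co2, a complex IV subunit that receives electrons from cytochrome c, had 155, 47.5, 73.0, 48.6 and 211 CPM in Keap1-deleted BAP libraries, against 102 to 325 CPM (median 258) in Keap1-wildtype BAP libraries. Again the libraries labelled Keap1-deleted BAP 2, 3 and 4 lay below the Keap1-wildtype range. The log2 fold change was -1.55 (SE 0.59, edgeR adjusted p = 0.0416), and -1.40 (adjusted p = 0.0481) with the counts of its nuclear copies added. In untreated tumours mt-Co2 had 91.5, 197, 101, 62.2 and 207.5 CPM with Keap1 deleted, against 62.65 to 734.5 CPM (median 212) with Keap1 wildtype. Its complex IV partners did not pass, with log2 fold changes of -0.85 for mt-Co1 (SE 0.48, adjusted p = 0.168) and -0.63 for mt-Co3 (SE 0.45, adjusted p = 0.27).

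The remaining complexes also gave negative estimates that did not pass. The 7 complex I genes ranged from -1.02 for mt-Nd1 (SE 0.50) to -0.57 for mt-Nd3 (SE 0.44), mt-Cytb was at -0.84 (SE 0.50), and mt-Atp6 was at -0.84 (SE 0.58). mt-Atp8, a small ATP synthase subunit, had an estimate of 1.69 (SE 1.03), with 15, 6, 2, 1 and 204 counts in Keap1-deleted BAP libraries against 7 to 16 counts (median 12) in Keap1-wildtype BAP libraries. It had 1 to 11 counts in Keap1-deleted untreated libraries and 5 to 78 counts in Keap1-wildtype untreated libraries. Without Keap1-deleted BAP 5 that estimate was -1.29. mt-Rnr1 was at -0.94 (SE 0.49) and mt-Rnr2 at -0.38 (SE 0.55). mt-Rnr2 had 711, 365, 277, 937 and 1195 CPM in Keap1-deleted BAP libraries, against 517 to 793.5 CPM (median 688) in Keap1-wildtype BAP libraries, with values both above and below that range. mt-Rnr1 had 502, 260, 267, 591 and 999 CPM in Keap1-deleted BAP libraries, against 544 to 900.1 CPM (median 755.5) in Keap1-wildtype BAP libraries.

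Unlike the untreated pair, mt-Tc and mt-Tn had estimates near 0 with BAP, at 0.13 (SE 0.55) and 0.36 (SE 0.63). mt-Tc had 17.4, 6.55, 13.1, 28.6 and 26.4 CPM in Keap1-deleted BAP libraries, against 6.54 to 19.6 CPM (median 11.5) in Keap1-wildtype BAP libraries. mt-Tn had 12.4, 3.13, 5.08, 10.8 and 15.1 CPM in Keap1-deleted BAP libraries, against 1.47 to 9.46 CPM (median 4.58) in Keap1-wildtype BAP libraries. For each gene some Keap1-deleted BAP libraries exceeded the Keap1-wildtype BAP range and the others lay within it.

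**Figure D3:**
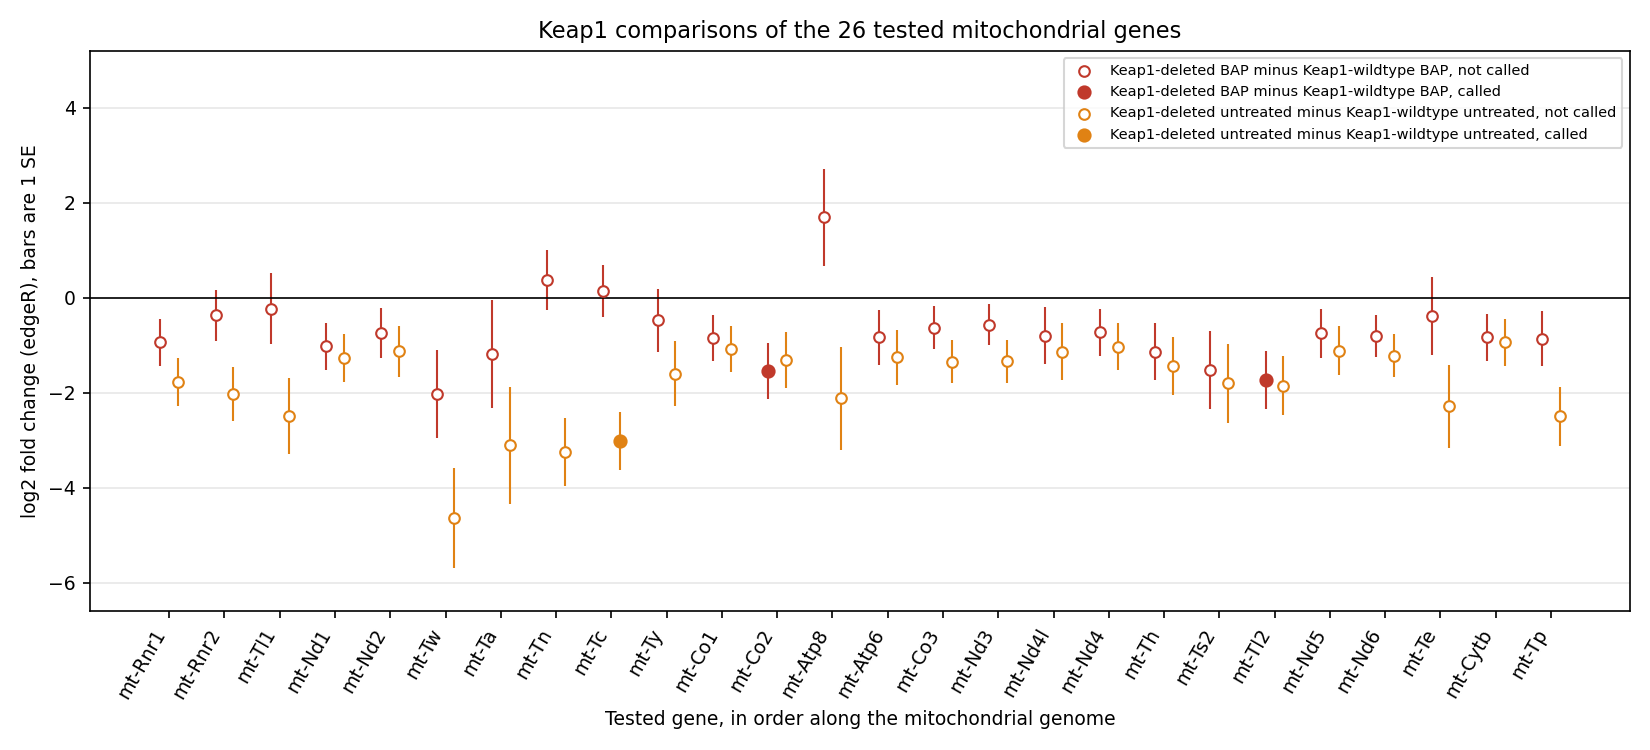
edgeR log2 fold changes (bars, 1 SE) of the 26 tested genes in order along the mitochondrial genome, Keap1-deleted minus Keap1-wildtype, with BAP and untreated side by side. Filled points passed an adjusted p under 0.05; all 26 untreated estimates are below 0, and with BAP mt-Tn, mt-Tc and mt-Atp8 lie above 0.

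The BAP comparison also depended on libraries and scaling. Without Keap1-deleted BAP 5 there were 7 called members. Without the library labelled Keap1-deleted BAP 2, or without Keap1-deleted BAP 3 or 4 or Keap1-wildtype BAP 6, there were 0, and without Keap1-wildtype BAP 1, 2, 4 or 5 there was 1. Over all fits without 1 library the estimate was -1.98 to -1.35 for mt-Co2 and -2.27 to -1.48 for mt-Tl2, and 6768 to 7536 of all genes were called. With library totals as the only scaling none was called, and the median over all genes moved to 0.44. Cell type markers moved with these groups as well: 11 of 12 basal keratinocyte markers fell, 13 of 15 tested muscle markers, 9 of 10 fibroblast markers and 9 of 10 macrophage markers rose, and 1 macrophage marker fell. Summed muscle marker CPM was 23.1 to 1734 in Keap1-deleted BAP libraries and 9.76 to 96.8 in Keap1-wildtype BAP libraries. Summed fibroblast marker CPM was 14200 to 43140 in Keap1-deleted BAP libraries and 638 to 2034 in Keap1-wildtype BAP libraries. With the keratinocyte score as a covariate none of the 19202 genes was called, members included, and the estimate of mt-Co2 was 0.78 (adjusted p = 0.982).

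In Keap1-deleted tumours mt-Tc was called as higher with BAP, a call kept in 1 of 10 fits that left out 1 library. Of the 26 members 1 rose and none fell by edgeR, while 6.1% of all genes passed in either direction, 0.943% as higher and 5.16% as lower. The share of members called was thus below the background for either direction. Against the Keap1-deleted untreated values given above, mt-Tc rose by 2.08 on the log2 scale (SE 0.60, adjusted p = 0.0434) and all 5 Keap1-deleted BAP libraries (6.55 to 28.6 CPM) lay above all 5 Keap1-deleted untreated libraries (2.85 to 4.49 CPM). mt-Tn also did not overlap, at 3.13 to 15.1 CPM in Keap1-deleted BAP libraries and 1.20 to 2.94 CPM in Keap1-deleted untreated libraries, but its log2 fold change of 2.08 did not pass (SE 0.69, adjusted p = 0.0801). These were 2 of the 26 tested members (7.69%), near the 6.21% of all genes tested without overlap.

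Within the tRNA pool, the share of mt-Tc and mt-Tn together was 37.1%, 33.2%, 49.5%, 69.3% and 39.6% in Keap1-deleted BAP libraries, against 20.2%, 18.5%, 19.2%, 26.6% and 13.5% in Keap1-deleted untreated libraries. It was 13.7% to 36.7% in Keap1-wildtype BAP libraries and 15.1% to 30.4% in Keap1-wildtype untreated libraries. The Keap1-deleted BAP libraries lay above both untreated groups and overlapped the Keap1-wildtype BAP group. mt-Tc and mt-Tn were the tRNAs whose CPM did not overlap between the Keap1-deleted groups, so their joint share is no separate result. Minus-strand tRNAs, mt-Tc and mt-Tn included, held 62.9% to 92.4% of tRNA counts in Keap1-deleted BAP libraries and 51.4% to 71.8% in Keap1-deleted untreated libraries. The Keap1-wildtype ranges were 55.0% to 70.9% with BAP and 57.8% to 77.7% untreated, and both overlapped the Keap1-deleted BAP range. mt-Tp, also on the minus strand, had a lower median share in Keap1-deleted BAP libraries (26.4%) than in Keap1-deleted untreated libraries (35.2%). mt-Tl2 held 3.13% to 19.4% of the pool in Keap1-deleted BAP libraries and 17.2% to 32.0% in Keap1-deleted untreated libraries. In Keap1-wildtype libraries mt-Tl2 held 14.45% to 32.6% with BAP and 11.18% to 26.35% untreated.

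No protein gene passed with BAP in Keap1-deleted tumours, 0 of 13, and their median estimate was 0.10. mt-Co1 was at 0.15 (SE 0.50) and mt-Nd1 at 0.05 (SE 0.51). mt-Atp8 was at 2.97 (SE 1.15, edgeR adjusted p = 0.135), and at -0.01 without Keap1-deleted BAP 5. The call on mt-Tc was lost without any 1 of the 5 Keap1-deleted untreated libraries, or without Keap1-deleted BAP 1, 3, 4 or 5. It held without the library labelled Keap1-deleted BAP 2. Over all 10 such fits the estimate was 1.87 to 2.28 and the adjusted p 0.0401 to 0.107, and 181 to 1597 of all genes were called, against 1172 in the full fit. Basal keratinocyte markers fell in the same comparison, 8 of 12, with summed values given above, and with their score as a covariate mt-Tc was at 2.46 (adjusted p = 0.484) and 2 of all genes were called. With the muscle score it was at 2.01 (adjusted p = 0.055).

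BAP in Keap1-wildtype tumours gave 0 called members of 26, as for all genes, where 0.0% passed by edgeR. At an unadjusted p under 0.05 in edgeR there were 2 of 26 members, mt-Tn (-1.54, SE 0.62) and mt-Tp (-1.24, SE 0.56). Of all 19202 genes 2622 reached it, a larger share than of the members. DESeq2 called 892 genes and none of the members. The median estimate was -0.20 for protein genes and -1.07 for tRNAs, against -0.09 over all genes. mt-Co1 was at -0.07 (SE 0.45).

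In the full fit the Keap1 effect differed with BAP for the same neighbouring tRNAs. In the interaction, the Keap1 effect with BAP minus that without, 2 of 26 members passed in edgeR, both upward. Of all genes 6.94% passed in either direction, 2.47% upward and 4.47% downward. The share of members called was thus near the background for either direction. mt-Tn was at 3.62 (SE 0.93, adjusted p = 0.0315) and mt-Tc at 3.15 (SE 0.80, adjusted p = 0.0309). The interaction uses the same libraries as the 4 comparisons above and is no separate evidence. mt-Co2 (-0.23, SE 0.80) and mt-Tl2 (0.12, SE 0.83), the members called with BAP, did not pass this test, and neither did mt-Co1 (0.23, SE 0.67) or mt-Nd1 (0.25, SE 0.69). Both calls were lost without Keap1-deleted untreated 1, 2 or 5 or Keap1-deleted BAP 4 or 5, and that of mt-Tn was lost without Keap1-deleted BAP 1. In the fits without any 1 library the estimates were 3.16 to 3.86 for mt-Tn and 2.625 to 3.38 for mt-Tc. Calls over all genes, 1333 in the full fit, were 1 without Keap1-deleted untreated 1, 2 or 5, 2 without Keap1-deleted BAP 4, 349 without Keap1-deleted BAP 5 and 512 without Keap1-deleted BAP 1. With the muscle score as a covariate the adjusted p was 0.0507 for each, and 295 of all genes were called. With the keratinocyte score 0 of 19202 genes were called, members included. Cell type markers passed the interaction test as well. As lower passed 7 of 12 basal keratinocyte markers, and as higher 8 of 10 macrophage markers and 1 of 10 fibroblast markers. Of the 15 tested muscle markers 0 passed.

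**Figure D4:**
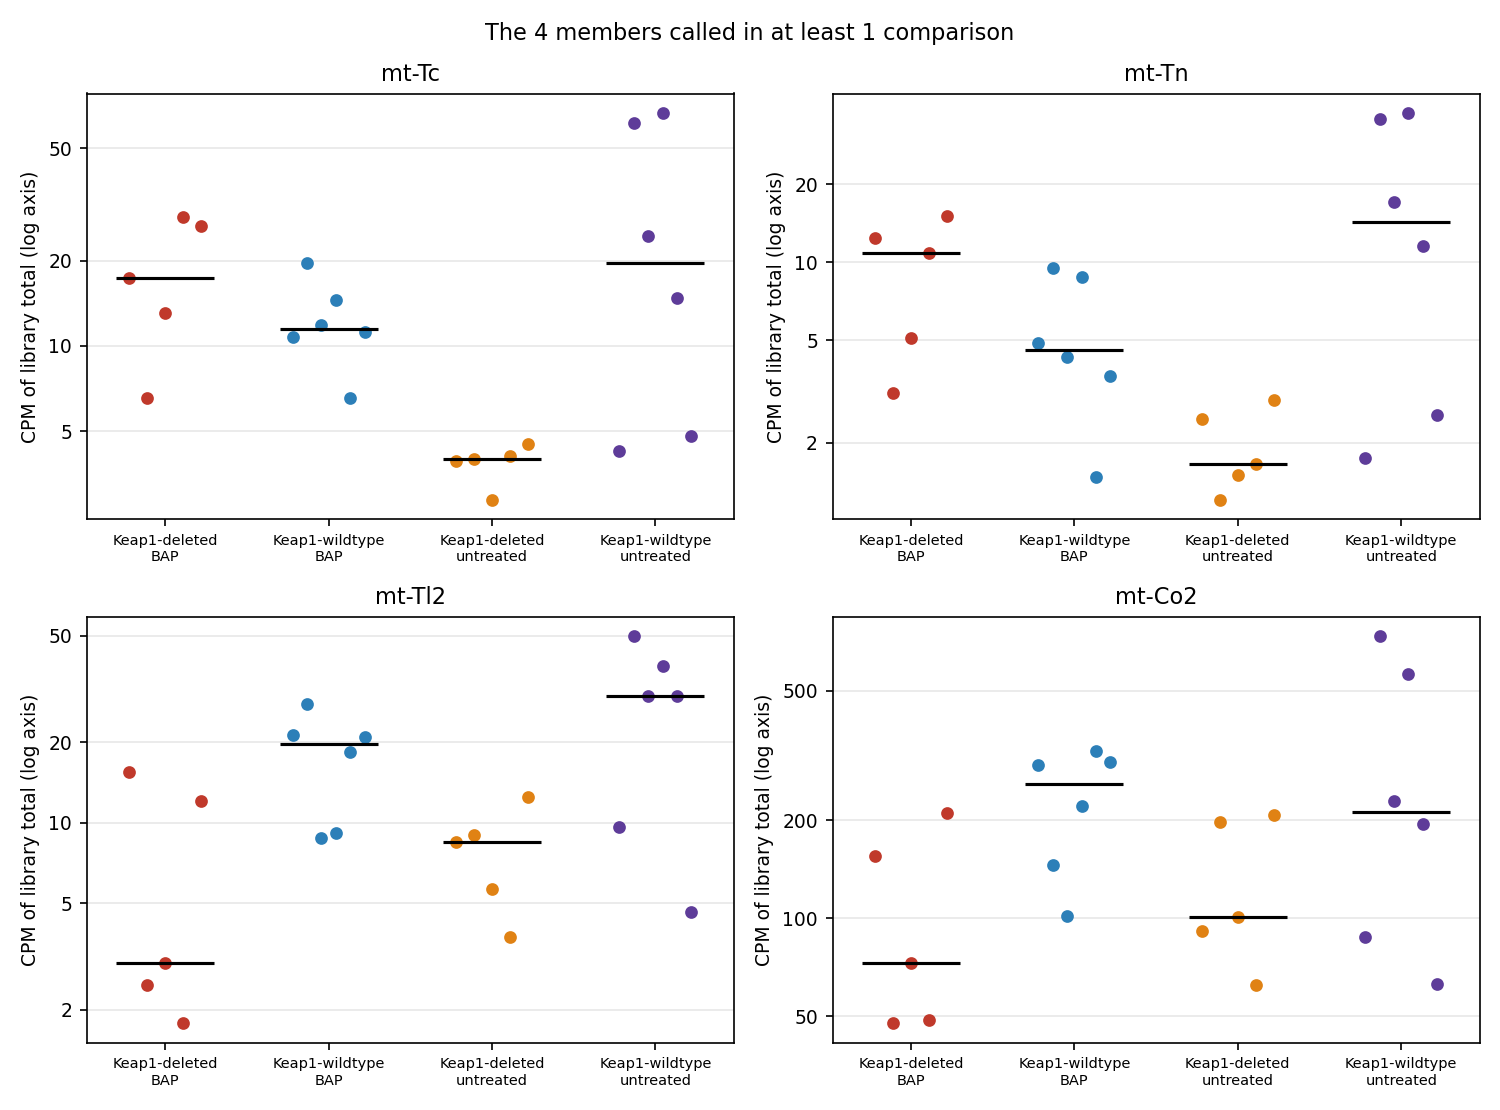
CPM (log axes) of mt-Tc, mt-Tn, mt-Tl2 and mt-Co2, the 4 members called in at least 1 comparison, with 1 point per library and bars at group medians. For mt-Tc the Keap1-deleted BAP libraries (6.55 to 28.6) lie above the Keap1-deleted untreated libraries (2.85 to 4.49), and Keap1-wildtype untreated libraries span 4.26 to 66.7.

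Nuclear genes that serve the mitochondrial genome were counted from lists chosen by function. In Keap1-deleted BAP against Keap1-wildtype BAP tumours 40.3% of all genes passed, 20.0% as lower and 20.3% as higher. The 6 lists together had 41 of 117 tested genes called (35.0%), below that share, with 35 lower (29.9%) and 6 higher. Of the lists, 10 of 22 nuclear subunits of the complexes that also hold mitochondrially encoded subunits fell (45.5%) and none rose. Examples are Ndufs1 of complex I (-1.06, SE 0.22) and Uqcrc1 and Uqcrfs1 of complex III (-1.13, SE 0.23, and -0.87, SE 0.22). The list's median was -0.45.

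Of 22 mitochondrial aminoacyl-tRNA synthetases and related enzymes, which load tRNAs with amino acids, 9 fell and 1 rose (45.5% called, near the background), with Rars2 for arginine at -1.18 (SE 0.29) and Iars2 for isoleucine at -0.88 (SE 0.22). Of 17 transcription factors and regulators 5 fell and none rose (29.4%), including Esrra, a nuclear receptor that drives respiratory genes (-1.53, SE 0.26), its coactivator Ppargc1b (-1.62, SE 0.44) and Mrpl12, a ribosomal protein that binds the mitochondrial RNA polymerase (-0.68, SE 0.20). Polrmt, that polymerase, fell as well (-0.59, SE 0.22, adjusted p = 0.0384), and Tfam, which packages mitochondrial DNA, did not pass (-0.31, SE 0.17, adjusted p = 0.158); these last were named after their values were seen.

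Of 21 RNA processing and decay genes 3 fell and 1 rose (4 of 21, below the background). Elac2, which cuts tRNA 3′ ends from the precursor, was at -1.13 (SE 0.20), Tbrg4, a FASTK family RNA-binding protein, at -1.04 (SE 0.21), Pde12, which removes poly(A), at -1.44 (SE 0.34), and Hsd17b10, a subunit of mitochondrial RNase P, at 0.72 (SE 0.24). Of 19 tRNA modification genes 5 fell and 3 rose (42.1%); Nsun3, a methyltransferase for the mitochondrial methionine tRNA, was at -1.45 (SE 0.32) and Rpusd4, a pseudouridine synthase, at 2.58 (SE 0.67). Of 16 DNA replication and maintenance genes 3 fell and 1 rose (25.0%), with Twnk, the replicative helicase, at -0.56 (SE 0.19) and Rrm2b, a ribonucleotide reductase subunit, at 0.71 (SE 0.25). All these values are edgeR log2 fold changes.

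In untreated tumours 0 of the 117 tested genes of these 6 lists passed, beside 0.292% of all genes, and 22 (18.8%) had an unadjusted p under 0.05, near the 17.6% of all genes. With BAP in Keap1-deleted tumours, Elac2 (-0.75, SE 0.20) and Esrra (-0.95, SE 0.27) fell and Rpusd4 rose (2.92, SE 0.73), 3 of 117 (2.56%) beside 6.1% of all genes. In the interaction 1 of 117 (0.855%) beside 6.94% of all genes, Elac2, passed as lower (-1.11, SE 0.28, edgeR adjusted p = 0.0301). The list calls have the same limits as those of the members. With the keratinocyte score 0 of 19202 genes were called for Keap1 deletion with BAP or in the interaction, list genes included. For BAP in Keap1-deleted tumours 2 genes were called.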

How the data were processed

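RNA from 22 frozen, pulverised mouse tumours was sequenced as paired 150 bp Illumina reads per the labels' protocols. The deposited values are expected counts per gene and library, per the file headers; all were whole within a tolerance of 1e-09, so rounding changed nothing. For the aligner, genome build, library selection and strandedness, the sources used here give nothing. Symbols and lengths came from GENCODE M21 (GRCm38), which named 52073 of 56748 IDs, holding 99.39% of counts.

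CPM were computed from library totals of 29235010 to 39862777 counts. For the tests, genes passing filterByExpr (minimum count 10) were scaled by TMM and fitted with edgeR 4.0.16 (R 4.3.3, robust quasi-likelihood F test, 1 mean per group, all 22 libraries) over 19202 genes, with 5 contrasts and Benjamini-Hochberg adjusted p under 0.05. The script was tested on simulated data with the same spread for every gene and no outlying library. That does not show how it performs on groups as uneven as these. DESeq2 1.42.0, other scalings, filters, covariates and left-out libraries were alternatives. A further covariate was a sample label ending in R, most frequent among Keap1-wildtype untreated libraries, whose meaning is not given. With it the same members were called. Calls over all genes went from 1333 to 3021 in the interaction and from 1172 to 1753 for BAP in Keap1-deleted tumours. For Keap1 deletion they went from 56 to 28 without BAP and from 7746 to 8132 with it, and for BAP in Keap1-wildtype tumours from 0 to 37. Covariate scores are means of log2 CPM of markers with a prior count of 2. Values are given for mt-Co1, mt-Nd1, mt-Nd6, called members, the most and least abundant protein genes per length, both rRNAs and the 3 most abundant tRNAs, and up to 4 called genes of smallest p per list. Members and lists were chosen with earlier results of these data known. Floors cover counting error only.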

Additional observations from a re-analysis of the deposited data

Results flagged for a closer look

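mt-Tn and mt-Tc had a different Keap1 effect with BAP than without it, by 3.62 and 3.15 on the log2 scale in edgeR's interaction test (adjusted p = 0.0315 and 0.0309). Of all genes 6.94% passed that test in either direction. Both calls were lost with no low-count filter, with the muscle or the keratinocyte score, and without some single libraries named above. Single libraries stood apart for 2 other members. mt-Atp8 was at 6.65 CPM in Keap1-deleted BAP 5, where the next library had 0.512 CPM. mt-Tp was at 37.1 CPM in the same library, with 15.4 CPM next. In Keap1-deleted untreated 5 mt-Tp was at 23.4 CPM, with 9.75 CPM next, and in Keap1-wildtype BAP 1 it was at 44.5 CPM, with 21.7 CPM next. These came from 56 sets of libraries examined for a value far from the others, of which 4 held one; chance gives about 1 in 20.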

How the results depend on the processing

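No paired analysis was possible because the labels give no replicate numbers, and those used here follow accession order. Leaving out 1 library at a time gave 0 to 13 called members for Keap1 deletion without BAP, 0 to 7 with BAP, 0 to 1 for BAP in Keap1-deleted tumours and 0 to 2 for the interaction. Called members without BAP numbered 0 with no low-count filter, 3 at 1 CPM or more in 5 libraries, 0 with only the groups compared, 0 with the muscle score, 9 with DESeq2, 9 without Keap1-wildtype untreated 2 and 6, and 13 without Keap1-wildtype untreated 6 and the library labelled Keap1-deleted BAP 2. With BAP they numbered 0 with library totals, the muscle score or the keratinocyte score, 1 with no filter and 1 without those last 2 libraries. For BAP in Keap1-deleted tumours they numbered 0 with no filter or either score, 3 with DESeq2 and 2 without those 2 libraries. For the interaction they numbered 0 with no filter or either score. Without BAP the calls over all genes were 36 of 35543 with no filter, 82 of 15778 at 1 CPM and 14 of 19202 with the muscle score. They were 944 of 19202 with DESeq2, 2099 of 19560 without the first pair of libraries and 2530 of 19540 without the second. Calls over all genes moved as well: the keratinocyte score left 0 of 19202 genes for Keap1 deletion with BAP and for the interaction and 2 for BAP in Keap1-deleted tumours, and only the groups compared left 0 for Keap1 deletion without BAP. Keap1 deletion with BAP had 7017 of 35543 genes called with no filter, 3180 of 19202 with the muscle score and 7667 of 19540 without the second pair. BAP in Keap1-deleted tumours had 398, 1121 and 1592 in these fits. DESeq2 called 2112 of 19202 genes there, a share near that of the members. The interaction had 111 of 35543 with no filter. Leaving out pairs of libraries and adding nuclear copies were chosen after seeing the data. With library totals 6028 of 8226 called genes were higher for Keap1 deletion with BAP, against 3900 of 7746 with TMM, and 1093 of 1763 against 475 of 1333 in the interaction. Signs turned in 36 member fits, none of them called, mostly for Keap1 deletion with BAP under the keratinocyte score, whose summed markers do not overlap between those groups. There the log2 estimates were 0.42 for mt-Rnr1, 0.81 for mt-Rnr2, 2.72 for mt-Tl1, 0.77 for mt-Nd1, 1.19 for mt-Nd2, 1.43 for mt-Ta, 1.12 for mt-Ty, 0.77 for mt-Co1, 0.78 for mt-Co2, 1.69 for mt-Atp6, 1.41 for mt-Co3, 0.90 for mt-Nd3, 0.94 for mt-Nd4, 1.06 for mt-Th, 3.09 for mt-Ts2, 0.89 for mt-Tl2, 0.83 for mt-Nd5, 0.79 for mt-Nd6, 1.63 for mt-Te, 0.89 for mt-Cytb, 1.41 for mt-Tp and 1.02 for mt-Nd4l. With library totals mt-Rnr2 was at 0.071, mt-Tl1 at 0.20 and mt-Te at 0.081, and with the muscle score mt-Tl1 was at 0.51 and mt-Te at 0.38. mt-Tl1 was at 0.017, 0.00060 and 0.0092 without the libraries labelled Keap1-deleted BAP 2, 3 and 4 (-1.05 to 0.017 over all single libraries), and at 0.018 without the pair of libraries. mt-Tc was at -0.035 and -0.073 without Keap1-deleted BAP 4 and 5 (-0.073 to 0.34), and mt-Te at 0.011 without Keap1-wildtype BAP 5 (-0.60 to 0.011). mt-Atp8 was at -1.29 without Keap1-deleted BAP 5 (-1.29 to 2.00), and at -0.012 for BAP in Keap1-deleted tumours (-0.012 to 3.28). The cause was not tested. mt-Atp8 (1 to 204 counts per library) rests on few reads.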
